A study of Mus musculus with 6 samples.

Results

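The DEAD box (Ddx) and DEAH box (Dhx) proteins are ATP-dependent helicases named after a short stretch of amino acids in their catalytic core. DEAD box proteins mostly pry open short RNA duplexes or clamp onto RNA, while DEAH box proteins move along a strand, often switched on by a G-patch cofactor. Between them they act at most steps in the life of an RNA, from ribosome assembly and splicing to export, translation and decay. The genes described here are every gene of the deposited table whose name begins with Ddx or Dhx followed by a digit. These were 51 of 14003 genes, 35 with a Ddx name and 16 with a Dhx name. They were chosen by name, with no cut on a value, but the family was put forward with the FPKM values and fold changes of this same contrast in view, so the counts and adjusted p-values below describe these libraries and are not independent support.

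The RNA came from cells labelled MC3T3-E1 and wild type. MC3T3-E1 is an established mouse preosteoblast line derived from calvaria. The 3 control (CTL) samples were untreated, and the 3 sulfasalazine (SAS) samples received 200 µM sulfasalazine for 24 h. Sulfasalazine is an anti-inflammatory drug that also blocks the cystine/glutamate antiporter. The labels do not say whether the controls received a vehicle or whether each replicate was its own culture. The p-values therefore cover only the scatter among these libraries, which could be technical. All 6 libraries carry the same batch label.

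Reads on genes ranged from 15980940 in control replicate 3 to 21579132 in sulfasalazine replicate 1. Levels are FPKM, fragments scaled to gene length and to the mapped fragments of the library, so they can be compared between genes. Changes are differences of log2(FPKM + 1), sulfasalazine over control, with the standard error (SE), and this scale understates the change of low genes. A gene rose or fell where limma's adjusted p was below 0.05 over the 10338 genes that reached 1 FPKM in at least 3 libraries. Of 12 osteoblast markers, 7 were in the table, and Sp7, Bglap, Col1a1 and Phex averaged below 1 FPKM, while Runx2, Sparc and Spp1 averaged 10 or more. The summed osteoblast markers ran from 1549 to 2142 FPKM in controls and from 889 to 1110 with sulfasalazine. Most of that was Spp1 (1513 to 2077 and 851 to 1057). Runx2 was lower in every treated library (20.9 to 24.9 and 16.8 to 19.8) and Sparc overlapped (10.05 to 43.6 and 18.1 to 31.7). The summed epithelial markers ran from 1293 to 1452 and from 1884 to 2093. Krt8 (260 to 324 in controls) and Krt18 (654 to 774 in controls) were higher in every treated library. Krt19 was lower (308 to 394 and 105 to 186), Cdh1 overlapped (5.23 to 7.44 and 5.15 to 9.03), and Krt5 and Krt14 averaged below 1 FPKM. Of the macrophage markers, Cd68 was at 31.7 to 56.2 and 16.3 to 27.7 FPKM and Csf1r was below 0.1 in all libraries. Among fibroblast markers, Pdgfrb overlapped (4.23 to 10.96 and 1.92 to 5.78), and Col3a1, Dcn and Pdgfra averaged below 1 FPKM. The part of these markers in the helicase values was not tested. The identity of the cells is taken from the labels and was not tested either.

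Of the 51 helicase genes, 48 were tested. With sulfasalazine 19 fell, 10 rose and 19 did not pass the test. That is 39.6% lower and 20.8% higher, beside 29.3% lower and 37.2% higher among all genes tested. In these bulk samples, fewer cells of a type and less RNA per cell cannot be told apart. The median log2 change was -0.19 for the helicase genes and 0.08 for all genes. A fall of at least 1 log2 unit was seen for 10 helicase genes and a rise of that size for 4, where all genes gave 13.9% lower and 19.2% higher. The 10 were Ddx39, Ddx46, Ddx21, Ddx3x, Dhx36, Ddx50, Ddx20, Ddx39b, Ddx42 and Ddx52, and the 4 were Ddx11, Ddx17, Dhx32 and Ddx59. Control and sulfasalazine libraries did not overlap for 28 of the 29 called genes (96.6%), Ddx58 being the exception, beside 97.7% of all called genes.

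**Figure D1:**
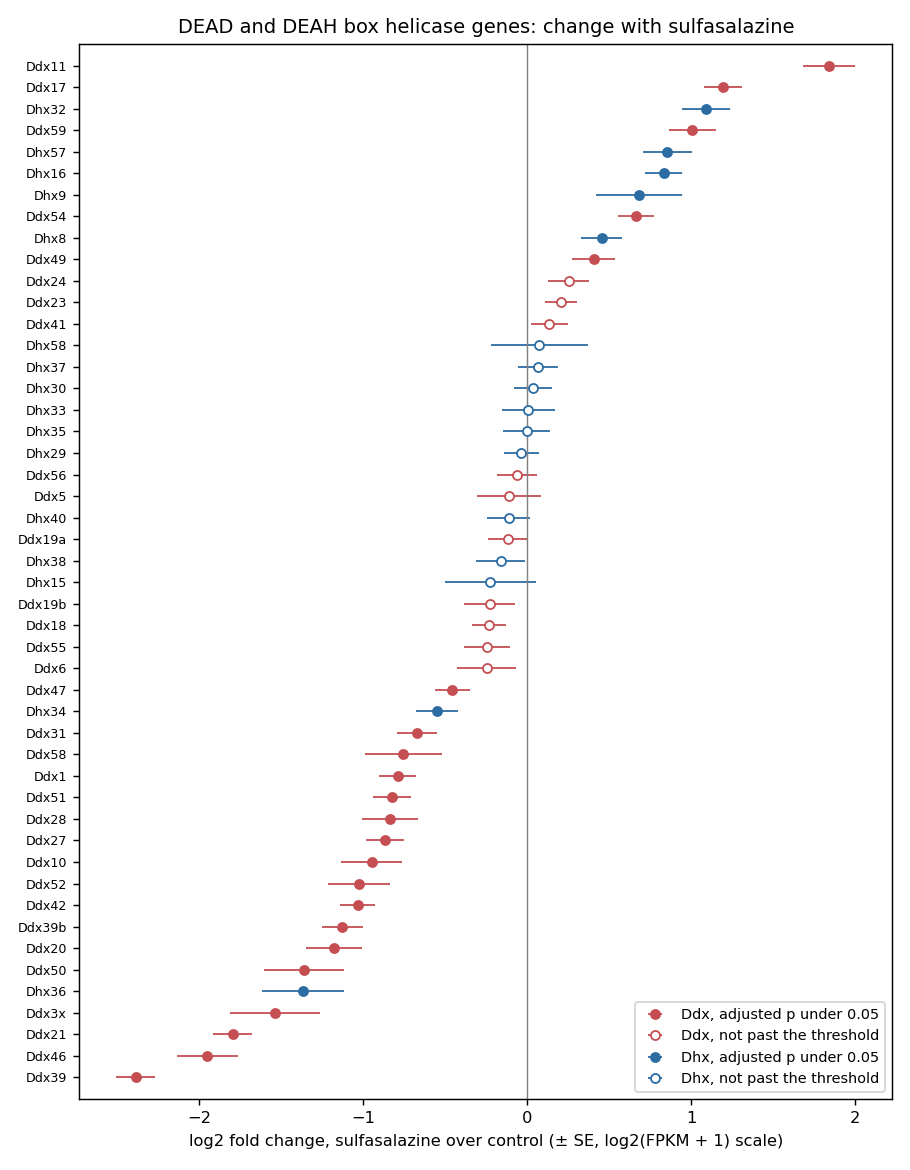
Log2 fold change, sulfasalazine over control, with its SE, for the 48 helicase genes tested (red Ddx, blue Dhx, filled where the adjusted p was under 0.05). The values run from -2.39 for Ddx39 to 1.84 for Ddx11, and most of the filled points on the left are Ddx genes.

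The DEAD and DEAH names differed in their counts. Of 32 Ddx genes tested, 17 fell (53.1%) and 5 rose (15.6%), with a median of -0.56. Of 16 Dhx genes, 2 fell (12.5%, Dhx36 and Dhx34) and 5 rose (31.2%, Dhx8, Dhx9, Dhx16, Dhx57 and Dhx32), with a median of 0.02. Among all genes tested, 29.3% fell and 37.2% rose, so the share of Dhx genes that rose was below that of all genes. Without SAS1 or without SAS2, 3 Dhx genes rose, and the Dhx median was below 0 under median-of-ratios scaling (-0.10), quantile normalization (-0.10), removal of each library's trend on transcript GC, an alternative chosen after seeing the data (-0.04), and without SAS3 (-0.03). The Ddx median was below 0 in each of these. The summed FPKM of the Ddx genes was 2583, 2549 and 2317 in the controls and 1765, 1768 and 1821 with sulfasalazine. That of the Dhx genes was 478, 455 and 418 in the controls and 513, 522 and 499 with sulfasalazine. Every treated library thus held less Ddx and more Dhx signal than any control, and the ratio of the sums went from 5.40, 5.60 and 5.54 to 3.44, 3.38 and 3.65. As a share of all FPKM, the Dhx genes overlapped between the groups (0.0590% to 0.0724% untreated, 0.0706% to 0.0715% treated) and the Ddx genes did not (0.327% to 0.391%, 0.242% to 0.258%). No test is given for the ratio or for the difference between the names, because the family was put forward with this contrast known.

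Promoter sequence is shown for 3 of the genes whose levels moved most, from a start whose preceding 250 bases hold no annotated exon. They are Ddx46 and Ddx39b, which fell, and Ddx17, which rose. Each is given 5′ to 3′ on the gene's strand from RefSeq (GRCm38.p6), with capitals marking a GC box.

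Ddx46, chr13:55634749-55634998, plus strand: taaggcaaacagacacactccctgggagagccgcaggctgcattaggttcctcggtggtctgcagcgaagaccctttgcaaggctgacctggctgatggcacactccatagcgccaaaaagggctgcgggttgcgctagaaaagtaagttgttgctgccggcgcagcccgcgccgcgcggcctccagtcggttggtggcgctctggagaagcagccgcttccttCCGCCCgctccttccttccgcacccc

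Ddx39b, chr17:35241496-35241745, plus strand: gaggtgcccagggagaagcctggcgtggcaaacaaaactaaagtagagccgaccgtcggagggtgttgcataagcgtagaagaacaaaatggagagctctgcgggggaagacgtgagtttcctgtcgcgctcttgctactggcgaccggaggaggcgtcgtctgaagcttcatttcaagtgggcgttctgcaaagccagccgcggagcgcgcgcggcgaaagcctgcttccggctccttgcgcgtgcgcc

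Ddx17, chr15:79546742-79546991, minus strand: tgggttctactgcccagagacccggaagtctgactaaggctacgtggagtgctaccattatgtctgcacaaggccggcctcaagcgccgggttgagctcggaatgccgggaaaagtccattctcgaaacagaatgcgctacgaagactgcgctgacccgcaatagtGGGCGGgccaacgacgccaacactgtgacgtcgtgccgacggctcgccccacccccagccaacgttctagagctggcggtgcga

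The windows shown are rich in G and C (63.2%, 60.8% and 60.8%). A further Ddx17 window, chr15:79532918-79533167, is exonic throughout and is not shown. Of the 51 helicase genes, 45 had a promoter entry, and 2 motifs were searched in their 250-base windows. A gene was counted if any of its windows matched, so genes with several windows had more chances. The GC box, GGGCGG or its complement CCGCCC, was in 66.7% of the lower, of the higher and of the uncalled helicase genes, beside 67.2% of tested genes and 35.4% of all promoters in the table. The palindromic E-box CACGTG, the core site of MYC and its relatives, was in 6 of 45 (13.3%), beside 10.4% of tested genes and 6.86% of all promoters. It was in 1 of 18 lower genes (Ddx42), 0 of 9 higher genes and 4 of 15 uncalled genes (Ddx5, Dhx33, Dhx35 and Dhx40), and in the untested Ddx4. The Ddx42 match was only in its window at chr11:106230416-106230665, and Ddx5 also had windows without a match. A match is a run of letters, not a bound site.

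The largest role group acts in the nucleolus on ribosome assembly. Among its 15 genes, 7 fell (46.7%), 2 rose (13.3%) and 6 did not pass the test, with a median of -0.25. Among all genes tested, 29.3% fell and 37.2% rose. Ddx21 (chr10:62580251-62602281), which couples RNA polymerase I transcription to rRNA processing, was at 226, 256 and 197 FPKM untreated and 64.5, 61.9 and 66.1 with sulfasalazine. Every treated library was below every control by a wide margin, with a log2 change of -1.80 ± 0.12 (SE; limma, adjusted p = 1.16e-05). Ddx27, a factor of large-subunit rRNA maturation, was at 146, 170 and 177 FPKM untreated and 94.0, 92.8 and 81.7 with sulfasalazine (log2 change -0.87 ± 0.11 (SE), limma, adjusted p = 0.000283). Its groups did not overlap.

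Ddx52, the mammalian counterpart of a yeast small-subunit processing helicase, was at 33.96, 32.0 and 21.1 FPKM untreated and 14.5, 12.5 and 13.5 with sulfasalazine. The third control was nearest to the treated libraries, and its log2 change of -1.02 passed the test (limma, adjusted p = 0.00175). Ddx10, Ddx51, Ddx31 and Ddx47, all factors of ribosome assembly, also fell, with log2 changes of -0.95, -0.82, -0.67 and -0.46. With the GC trend removed, Ddx52, Ddx10 and Ddx47 stood at -0.68, -0.53 and -0.29 and still passed.

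The other direction was seen in Ddx54 and Ddx49. Ddx54 was at 40.0, 44.0 and 45.5 FPKM untreated and 69.7, 73.6 and 63.5 with sulfasalazine, a rise of 0.66 ± 0.11 (SE; limma, adjusted p = 0.000938). With the GC trend removed the rise was 0.35 (limma, adjusted p = 0.0145). Part of its signal is uncertain, since 15.5% of its exonic bases overlap another gene, Gm43579. Ddx49 rose by 0.40 (limma, adjusted p = 0.0243), but 29.8% of its exonic bases overlap other genes, mainly Homer3. The sources used here do not say whether counting used strand. Its call was lost without any one of CTL1, CTL2, SAS1 or SAS2 (limma, adjusted p from 0.0655 to 0.111), under median-of-ratios scaling at 0.28 (limma, adjusted p = 0.119) and under removal of the GC trend at 0.10 (limma, adjusted p = 0.360).

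Ddx24, a nucleolar helicase and the fourth most abundant member, was at 113, 109 and 145 FPKM untreated and 148, 147 and 140 with sulfasalazine. Its groups overlapped through control 3, and it did not pass (log2 change 0.25, limma, adjusted p = 0.110). It did pass without control 3 (0.38, limma, adjusted p = 0.00353) and under quantile normalization (0.35, limma, adjusted p = 0.0252). Ddx18, Ddx55, Ddx56, Dhx33 and Dhx37 had log2 changes between -0.24 and 0.06 and did not pass. For Ddx18, 62.7% of the 50-base words of its transcript also occur elsewhere, mainly in Gm16433, so its level is uncertain.

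**Figure D2:**
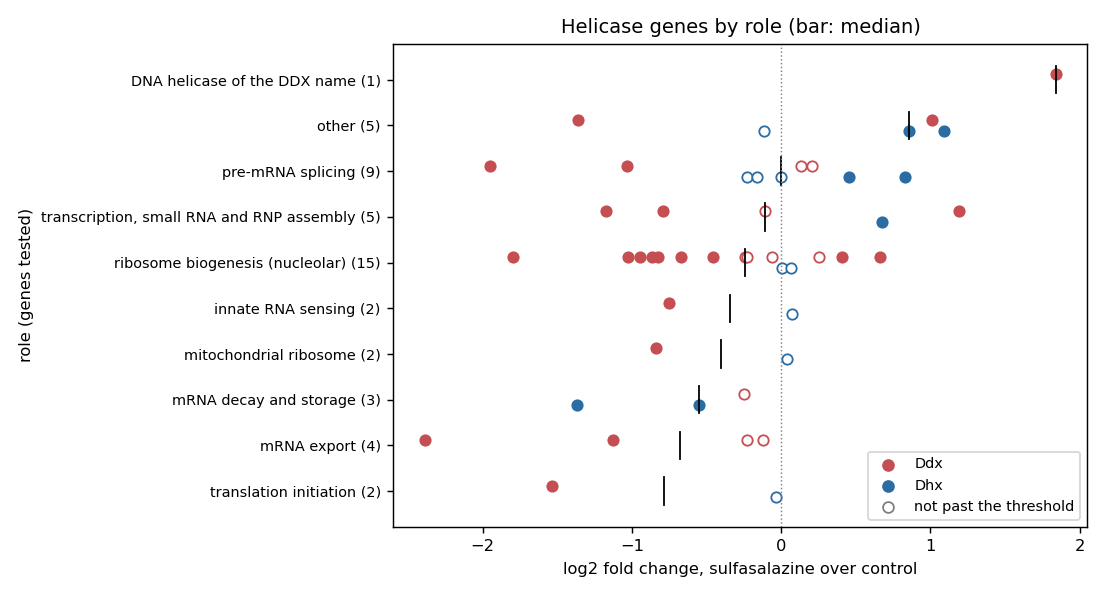
Log2 fold change of each helicase gene tested, in rows by role with the number tested, and the median of the row as a bar. Open points did not pass the test. The 15 nucleolar genes range from -1.80 (Ddx21) to 0.66 (Ddx54), and both DEAH splicing genes that passed lie to the right of 0.

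There are 9 members that work in the spliceosome, where Ddx and Dhx proteins remodel the snRNPs step by step. Ddx46 (PRP5, chr13:55635027-55681256), which helps the U2 snRNP settle on the branch point, was at 21.2, 20.1 and 15.0 FPKM untreated and 4.37, 3.36 and 4.53 with sulfasalazine. All 3 treated libraries were far below all controls (log2 change -1.95 ± 0.19 (SE), limma, adjusted p = 5.39e-05). Ddx42, which acts on the same U2 snRNP, was at 44.7, 46.8 and 47.4 FPKM untreated and 23.4, 21.01 and 21.9 with sulfasalazine, with tight groups that lay well apart. It fell by 1.03 ± 0.11 (SE; limma, adjusted p = 8.48e-05).

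Dhx16 and Dhx8, the DEAH box splicing genes that passed, went the other way. Dhx16 (PRP2), which drives the spliceosome toward its catalytic form, was at 49.6, 47.4 and 56.1 FPKM untreated and 91.6, 98.9 and 84.3 with sulfasalazine. It rose by 0.83 ± 0.11 (SE; limma, adjusted p = 0.000337), and by 0.53 with the GC trend removed (limma, adjusted p = 0.000926). Dhx8 (PRP22), which releases the spliced mRNA, rose by 0.45 (limma, adjusted p = 0.0125), a call lost without SAS1 or without SAS2 (limma, adjusted p = 0.0588 and 0.0650). It was lost too under median-of-ratios scaling at 0.33 (limma, adjusted p = 0.0634) and under removal of the GC trend at 0.28 (limma, adjusted p = 0.0777). Ddx23, Ddx41, Dhx15, Dhx35 and Dhx38 did not pass, with log2 changes between -0.23 and 0.21. With the GC trend removed, Dhx38 was lower, at -0.45 (limma, adjusted p = 0.0442). Dhx15, which takes spent spliceosomes apart, was at 67.2 and 73.3 FPKM in controls 1 and 2 and 33.6 in control 3, and at 41.3, 45.0 and 55.2 with sulfasalazine. Without control 3 it passed with a log2 change of -0.57 (limma, adjusted p = 0.00491).

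The nuclear export helicases held the gene with the largest fall among the 48 tested, on the log2(FPKM + 1) scale. Ddx39 (chr8:83715177-83726892) and its paralog Ddx39b (chr17:35241746-35253707) are partners of the TREX complex, which loads export factors onto mRNA. Ddx39 was at 65.5, 68.2 and 73.4 FPKM untreated and 12.1, 11.6 and 13.5 with sulfasalazine (log2 change -2.39 ± 0.12 (SE), limma, adjusted p = 4.73e-06). The groups lay far apart, though 17.4% of its exonic bases overlap other genes, mainly Adgre5 on the opposite strand. Ddx39b was at 291, 292 and 367 FPKM untreated and 139, 139 and 154 with sulfasalazine, a fall of 1.13 ± 0.12 (SE; limma, adjusted p = 0.000106).

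Ddx39 fell further than Ddx39b. The ratio of their FPKM was 0.225, 0.233 and 0.200 in the controls and 0.0872, 0.0833 and 0.0880 with sulfasalazine, so no treated library came near a control. The difference was chosen after the values were seen and was not tested. Ddx19a and Ddx19b, neighbours on chromosome 8 that remodel mRNPs at the nuclear pore, had log2 changes of -0.12 and -0.23 and did not pass. They share sequence (33.3% of the 50-base words of Ddx19a), so reads could be split between them. Under quantile normalization Ddx19b was lower, at -0.44 (limma, adjusted p = 0.0199). Ddx25, a testis form, had at most 1 read in any library.

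Ddx3x (chrX:13280970-13294052), which opens structured leaders for translation initiation, was at 214, 185 and 103 FPKM untreated and 53.4, 44.3 and 67.8 with sulfasalazine. Control 3 was much lower than the other controls but still above every treated library, and the gene fell by 1.54 ± 0.27 (SE; limma, adjusted p = 0.00136). With the GC trend removed its change was -1.02 (limma, adjusted p = 0.000873). Dhx29, which helps the 43S complex scan such leaders, was between 30.04 and 32.0 FPKM untreated and between 28.7 and 31.4 with sulfasalazine. It did not pass, at -0.04 ± 0.11 (SE; limma, adjusted p = 0.783).

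Among the members tied to mRNA decay and storage, Dhx36, which unwinds G-quadruplexes, was at 19.1, 16.8 and 10.9 FPKM untreated and 5.96, 3.79 and 6.44 with sulfasalazine. It fell by 1.37 ± 0.25 (SE; limma, adjusted p = 0.00159). Its transcript has the lowest GC content of the 48 (40.0%), and with the GC trend removed the change was -0.79 (limma, adjusted p = 0.00276). Dhx34, of the nonsense-mediated decay pathway, fell by 0.55, and stood at -0.86 with the GC trend removed. Ddx6, the P-body helicase, was at 48.6, 38.1 and 30.1 FPKM untreated and 33.8, 28.7 and 33.9 with sulfasalazine. Those groups overlapped, and it did not pass (-0.25, limma, adjusted p = 0.250), though it did without control 3 (-0.41, limma, adjusted p = 0.0236).

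The transcription and RNP assembly members split. Ddx5 and Ddx17 are close paralogs that serve as transcription coregulators and as parts of the microprocessor. Ddx5, the most abundant of all 51 genes, was at 530, 497 and 317 FPKM untreated and 377, 400 and 439 with sulfasalazine. Its groups overlapped through control 3 and it did not pass (-0.11 ± 0.20 (SE), limma, adjusted p = 0.638). Without control 3 it did, at -0.34 (limma, adjusted p = 0.0210), and with each library's trend on transcript GC removed it was higher, at 0.38 (limma, adjusted p = 0.0167), so no direction is given for it.

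Ddx17 (chr15:79527736-79546741) was at 51.4, 52.4 and 41.7 FPKM untreated and 111, 109 and 116 with sulfasalazine. Every treated library was above every control (1.19 ± 0.12 (SE), limma, adjusted p = 6.26e-05). The ratio of Ddx17 to Ddx5 was 0.0971, 0.105 and 0.132 in the controls and 0.294, 0.271 and 0.263 with sulfasalazine. In Ddx5, 22.7% of the 50-base words also occur elsewhere, mainly in Gm12183.

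Ddx20 (Gemin3), a core part of the SMN complex that assembles snRNPs, was at 24.3, 23.6 and 17.5 FPKM untreated and 7.97, 9.49 and 9.61 with sulfasalazine. It fell by 1.18 ± 0.17 (SE; limma, adjusted p = 0.000444), with groups that lay apart. Ddx1, of the tRNA ligase complex, fell by 0.79 (limma, adjusted p = 0.000457). Dhx9, which resolves RNA:DNA hybrids and long duplexes, was at 31.0, 24.2 and 13.8 FPKM untreated and 37.5, 31.2 and 38.6 with sulfasalazine. It rose by 0.68, just past the threshold (limma, adjusted p = 0.0484), and leaving out CTL2, SAS1, SAS2 or SAS3 lost the call (limma, adjusted p from 0.0631 to 0.126), as did median-of-ratios scaling and no filter (limma, adjusted p = 0.0778 in each). Without control 3 the Dhx9 log2 fold change was 0.37 (limma, adjusted p = 0.0468).

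**Figure D3:**
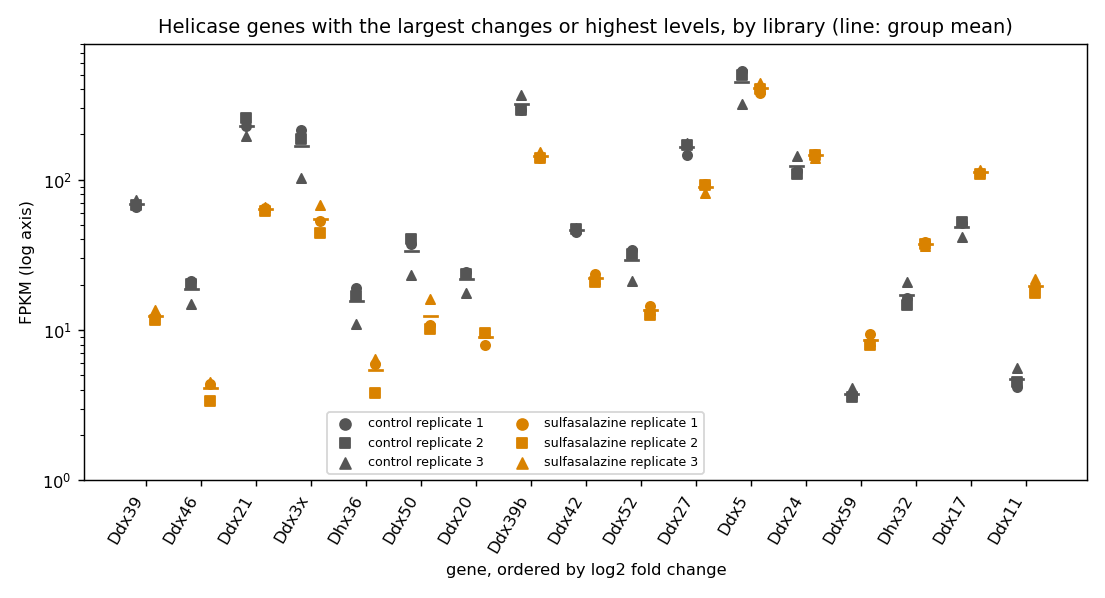
FPKM on a log axis in each library for the helicase genes with an absolute log2 change of at least 1 and the most abundant ones. Grey is control, orange is sulfasalazine, the marker shape gives the replicate number and the short line is the group mean. Control 3 (grey triangle) is the lowest control for Ddx3x, Ddx5, Dhx36 and Ddx50 and the highest for Ddx39b and Ddx24.

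The innate sensors detect viral-type RNA. Ddx58 (RIG-I) was at 41.0, 25.8 and 37.6 FPKM untreated and 17.1, 16.8 and 27.1 with sulfasalazine. Control 2 lay below sulfasalazine replicate 3, and the fall of 0.76 ± 0.23 (SE; limma, adjusted p = 0.0202) was lost without CTL1, SAS1 or SAS2 (limma, adjusted p from 0.0719 to 0.0727). Dhx58 (LGP2) was at 0.916, 1.19 and 2.05 FPKM untreated and 1.06, 0.897 and 2.84 with sulfasalazine and did not pass (limma, adjusted p = 0.832). Ddx60 had 16, 6 and 4 reads in the controls and 1, 1 and 1 with sulfasalazine, too few to enter the test. The authors' deposited table gives Ddx60 a log2 fold change of -3.14 with an adjusted p of 0.00132.

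Of the 2 mitochondrial ribosome factors, Ddx28 fell by 0.84 and Dhx30 did not pass, at 0.04. Among the remaining members, Ddx50, the neighbour and paralog of Ddx21 on chromosome 10, was at 37.1, 40.3 and 23.4 FPKM untreated and 10.8, 10.1 and 16.1 with sulfasalazine. It fell by 1.36 ± 0.24 (SE; limma, adjusted p = 0.00145), and 17.3% of its 50-base words occur elsewhere, mainly in Gm8228. Ddx50 was assigned to no role group, so the nucleolar counts above leave it out. Ddx11, an iron-sulfur DNA helicase of sister chromatid cohesion that carries the Ddx name, was at 4.17, 4.47 and 5.57 FPKM untreated and 19.2, 17.6 and 21.7 with sulfasalazine. It had the largest rise of the 48 tested genes (1.84 ± 0.16 (SE), limma, adjusted p = 3.71e-05), and its groups lay far apart.

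Dhx32 was at 16.3, 14.6 and 20.7 FPKM untreated and 38.5, 37.6 and 36.2 with sulfasalazine, a rise of 1.09 ± 0.15 (SE; limma, adjusted p = 0.000329). Ddx59, whose mutation in people causes an orofaciodigital syndrome, was at 3.63, 3.58 and 4.10 FPKM untreated and 9.43, 7.97 and 8.39 with sulfasalazine, a rise of 1.01 ± 0.15 (SE; limma, adjusted p = 0.000462). In both genes all treated libraries were above all controls. Dhx57 rose by 0.85, and Dhx40 did not pass, at -0.11. Ddx4, the germ-line helicase vasa, had at most 2 reads in any library.

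Partners of these helicases were read from the same fit. The eIF4A helicases are DEAD box proteins under other names. Of 13 genes for them and their partners, 6 fell (46.2%) and 2 rose (15.4%), with a median of -0.32. Among all genes tested, 29.3% fell and 37.2% rose. Eif4a1, the main initiation helicase, was at 1103, 1276 and 939 FPKM untreated and 637, 702 and 669 with sulfasalazine. Eif4e, which binds the mRNA cap, fell by 1.66 (limma, adjusted p = 9.64e-06), and Pdcd4, an inhibitor of eIF4A, rose by 2.63 (limma, adjusted p = 8.44e-06) from a control mean of 1.36 FPKM. Rbm8a, Eif4a2, Eif4h and Magoh also fell and Casc3 rose. Eif4a3 did not pass (-0.33, limma, adjusted p = 0.132). Without SAS1, 1 gene of this list was higher.

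Of 24 tested cofactors of DEAD box helicases, 11 fell (45.8%) and 6 rose (25.0%), with a median of -0.30. Among all genes tested, 29.3% fell and 37.2% rose. Thoc1, Thoc2, Thoc3, Thoc6 and Alyref, of the TREX complex that works with Ddx39b, fell, with log2 changes of -1.05, -1.36, -1.28, -1.83 and -0.89. Thoc5 rose by 0.41 and Thoc7 did not pass (-0.30, limma, adjusted p = 0.112). The Thoc1 groups overlapped, with 10.3 FPKM in control 3 and 10.6 in sulfasalazine replicate 3. For Thoc2, control 3 was at 15.9 FPKM beside 39.3 and 37.9 in controls 1 and 2. Smn1, the scaffold that holds Ddx20, fell by 1.68, from 282, 312 and 356 FPKM untreated to 99.9, 96.4 and 96.6 with sulfasalazine. The other SMN complex genes were mixed: Gemin6 fell (-1.16), Gemin7 (0.85) and Gemin8 (0.49) rose, Gemin2 (0.0011) and Gemin5 (0.19) did not pass, and Gemin4 was under the filter. Gle1, which activates Ddx19 at the nuclear pore, rose by 0.97, and Drosha, the nuclease that Ddx5 and Ddx17 accompany, rose by 0.80. Dgcr8, listed with Drosha, did not pass (0.43, limma, adjusted p = 0.150).

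Control 3 differed from controls 1 and 2 in a way that followed base composition and transcript length. The same difference was not computed for control 1 or control 2. Control 3 had the fewest reads. Of the 48 helicase genes it was the lowest control for 21 and the highest for 18, against 13 and 20 for control 1 and 14 and 10 for control 2. Its difference from controls 1 and 2 followed the GC content of the longest transcript, with a Spearman rho of 0.57 over 10319 genes and 0.74 over the 48 helicase genes, which share libraries. That difference ran against transcript length, with a rho of -0.40 over all genes and -0.43 over the helicase genes. The fold change with sulfasalazine followed GC less closely, with a rho of 0.28 over all genes and 0.42 over the helicase genes. The median GC was 46.6% in the lower, 51.6% in the higher and 50.6% in the uncalled helicase genes. Without control 3, 22 helicase genes fell and 11 rose, and with the GC trend removed 22 fell and 9 rose. That removal moved the log2 change of 10 of the 29 called genes by over 1.5 times.

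**Figure D4:**
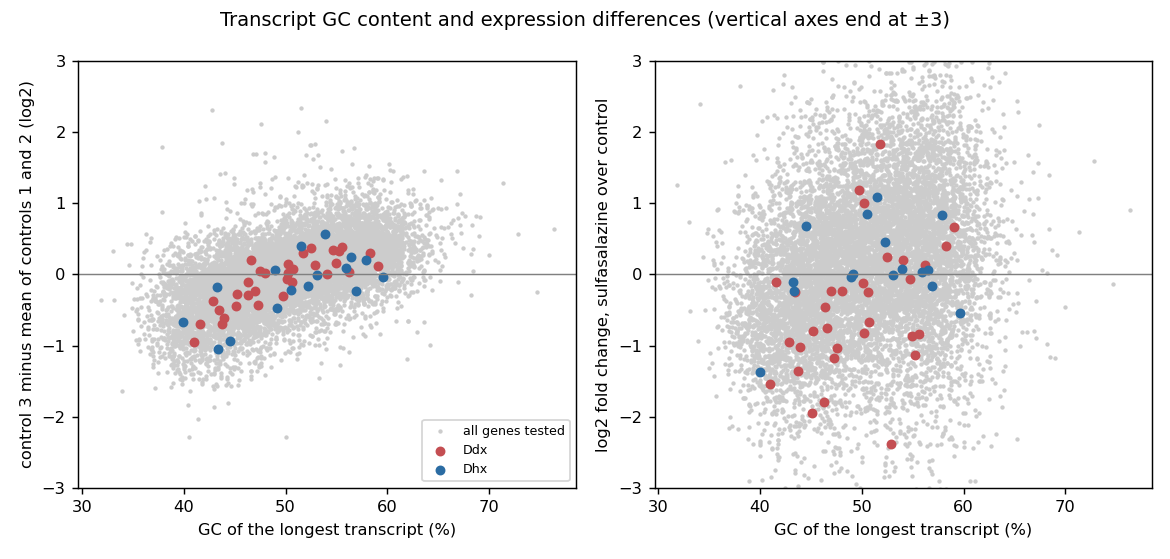
GC content of the longest transcript against the log2 difference of control 3 from controls 1 and 2 (left) and against the log2 change with sulfasalazine (right), for genes tested (grey) and helicase genes (red Ddx, blue Dhx). In the left panel the helicase points climb with GC (rho 0.74), and in the right panel they do so less closely (rho 0.42).

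The authors' deposited table, at an adjusted p under 0.05, calls 20 helicase genes lower and 7 higher, against 3753 lower and 3943 higher among all genes. In the authors' deposited table Ddx49, Dhx8 and Dhx9 have adjusted p of 0.166, 0.0741 and 0.0526, and all 3 are called higher here.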

How the data were processed

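The authors deposited 1 table with FPKM per library, a library-size-adjusted signal, and the authors' log2 fold changes and p-values, per the file headers. The submitters' processing notes name HTSeq 0.13.5, HISAT2 2.2.1, fastp 0.23.0 and edgeR, with build mm39. The sources used here do not say what each did. Gene positions match GENCODE M21 on GRCm38 for all 51 members, so GRCm38 coordinates are given. Whole reads were recovered from the FPKM steps for 100.0% of genes and gave the depths. For 3091 genes more than 1 set of reads was possible. The set nearest an estimate from the library-size-adjusted signal was then taken.

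The groups were taken from the sample titles. limma 3.58.1 (R 4.3.3; lmFit and eBayes with trend, two-sided) was fitted to log2(FPKM + 1) with 3 libraries per group, with Benjamini-Hochberg adjustment, after a filter of 1 FPKM in at least 3 libraries. It was also run on simulated counts with few changed genes and no GC trend, a setting unlike these libraries. Members and lists were chosen with earlier results of these data known. Values in every library are given for members past the threshold with an absolute log2 change of at least 1, the 5 most abundant and the innate sensors. Others named were chosen after their values were seen. Alternatives covered pseudocount, filter, scaling, recovered reads, the replicate number and each library left out. Protein motifs were not analysed here.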

Additional observations from a re-analysis of the deposited data

How the results depend on the processing

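Of the 29 called helicase genes, 25 (18 lower and 7 higher) kept their call under all 14 alternatives other than the fold minimum, Ddx58, Ddx49, Dhx8 and Dhx9 being the exceptions. With a minimum absolute log2 change of 1, 4 helicase genes were higher and 10 lower (Ddx 3 and 9, Dhx 1 and 1, nucleolar 0 and 2, splicing 0 higher), as were 1 and 1 G-patch genes, 0 and 7 DEAD cofactors, 1 and 1 eIF4A genes and 2 and 3 other RNA helicases. With median-of-ratios scaling, which moved the median of all genes from 0.083 to -0.035, there were 3 Dhx, 1 nucleolar, 1 splicing, 3 DEAD cofactor and 1 eIF4A gene higher and 5 G-patch genes lower, and the medians were -0.687 (Ddx) and -0.101 (Dhx). Quantile normalization gave 7 G-patch genes lower and a Dhx median of -0.104. Removing the GC trend, chosen after seeing the data, gave 1 nucleolar and 1 splicing gene higher and 9 nucleolar and 3 splicing genes lower. It also gave 5 G-patch genes lower, a Ddx median of -0.445 and Ddx5 at 0.378. The cause was not tested.

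Leaving out 1 library at a time gave 7 to 11 helicase genes higher and 18 to 22 lower, 3 to 5 Dhx genes higher, 1 to 3 nucleolar, 1 to 2 splicing and 1 to 3 eIF4A genes higher, 2 to 5 G-patch and 5 to 10 other RNA helicase genes lower (10 without control 3), and a Ddx median from -0.601 to -0.502. The limma voom fit on recovered reads called 10 helicase genes higher and 19 lower. The labels do not say whether replicate numbers pair the samples. Deviation correlations for matching numbers were 0.036, -0.194 and -0.174. With 3 libraries per group these cannot decide it. A replicate block left 1 nucleolar gene higher, since Ddx49 lost its call (limma, adjusted p = 0.062), and changed no other helicase call. Dhx58, near 1 FPKM, and Ddx4, Ddx25 and Ddx60, with few reads, are limited by depth.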

Other observations

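RNA helicases outside the Ddx and Dhx names were read from the same fit. Of 16 tested, 6 fell (37.5%) and 4 rose (25.0%), with a median log2 change of -0.26. Among all genes tested, 29.3% fell and 37.2% rose. Without control 3, 10 fell. Ascc3, a helicase of stalled ribosome rescue, was at 64.7, 72.3 and 24.1 FPKM untreated and 9.69, 7.45 and 11.9 with sulfasalazine. Mtrex, the helicase of the nuclear exosome, fell by 1.22, and Ythdc2, Dqx1, Helz2 and Supv3l1 fell too. Mov10, which travels with RNA silencing factors, was at 6.16, 4.65 and 13.98 FPKM untreated and 26.4, 22.7 and 23.5 with sulfasalazine. Znfx1, Skiv2l and Upf1 also rose. Control 3 was the lowest control for Ascc3 and the highest for Mov10, and no treated library overlapped a control in either gene.

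Of 16 tested G-patch genes, the cofactors that switch on DEAH box helicases, 3 fell and 3 rose (18.8% each), with a median of -0.02. Both shares were below those of all genes tested (29.3% lower and 37.2% higher). Without control 3, 5 fell. Pinx1, a partner of Dhx15, was at 45.7, 45.6 and 50.5 FPKM untreated and 10.1, 13.0 and 11.3 with sulfasalazine. Gpatch11 was at 1.09, 1.21 and 2.08 FPKM untreated and 9.51, 9.97 and 11.6 with sulfasalazine. Gpatch4 and Rbm5 also fell, and Cmtr1 and Rbm10 also rose.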
